A study of Mus musculus with 6 samples.

Results

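The genes described here are 10 members of the PARP family, the ADP-ribosyltransferases Parp1, Parp2, Parp3, Parp8, Parp9, Parp10, Parp11, Parp12, Parp14 and Parp16. They were taken by gene symbol from the annotation of the array, where they have 11 of 55681 non-control probes, and they are 10 of 23808 named genes on it. Each has 1 probe except Parp16, which has 2. Expression was measured in the mouse macrophage line RAW264.7, kept in DMEM medium (control) or given 50 µg/ml of AEPS, a polysaccharide obtained from Actinidia eriantha roots. Both groups were sampled after 4 h with 3 samples each, and total RNA was labelled with Cy3 for 1-colour Agilent arrays.

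PARP enzymes take NAD+ as substrate and attach ADP-ribose to proteins and nucleic acids, as a chain or as a lone unit. Parp1 and Parp2 bind broken DNA and build poly(ADP-ribose) chains that recruit repair proteins. Parp9, Parp10, Parp11, Parp12 and Parp14 are grouped here as interferon-linked because they are known as interferon-stimulated genes, and several of them act in antiviral and macrophage responses. Parp3, a further DNA break responder, Parp8, whose role is less well defined, and Parp16, an enzyme of the endoplasmic reticulum membrane, were kept as other members.

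In each group the scanner files of replicates 1 and 2 held the same values and entered once, leaving 2 distinct arrays per group. Each of 2 slides held 1 control and 1 AEPS array. The authors' deposited value table has 6 distinct columns. Its replicate 1 and 2 columns ranked probes as the distinct arrays did, with Spearman correlations from 0.999822 to 0.999917, but its replicate 2 columns matched the scanner files given for replicate 3. Its replicate 3 columns matched no scanner file, so a replicate number need not mean the same sample in both sources. Only those columns add to the scanner arrays, so the sources are not independent. Between 55.4% and 58.7% of 59305 non-control spots were well above background on each array. All 8 macrophage markers, among them Csf1r and Adgre1, were well above background on every array. Of 12 markers of T, B, fibroblast, epithelial and endothelial cells, 4 were well above background on every array. These were Cd3e, Cd79a, Col1a2 and Pecam1, which mark T, B, fibroblast and endothelial cells. Cd3d, Ms4a1, Col1a1, Pdgfrb, Epcam, Krt18 and Cdh5 were not well above background throughout either group. Apart from the epithelial ones, markers of the same cell type thus went both ways. Separate cultures are not stated in the labels, and the p-values then reflect only the scatter of these samples, which may be technical.

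The stretches of transcript read by the 7 probes of the DNA-repair and interferon-linked members are shown because every value below is the signal of 1 such probe. Each line gives the first 30 of its 60 bases, 5′ to 3′. Coordinates are those of the file annotation, in build mm9. The Parp1 probe lies at chr1:182530341-182530639 on the plus strand and the Parp2 probe at chr14:51439134-51439365 on the plus strand. The Parp9 probe lies at chr16:35972577-35972636 on the plus strand and the Parp14 probe at chr16:35832992-35833051 on the minus strand. The Parp10 probe lies at chr15:76063433-76063492 on the minus strand, the Parp11 probe at chr6:127428092-127439947 on the plus strand and the Parp12 probe at chr6:39036828-39036887 on the minus strand. The probes of Parp1, Parp2 and Parp11 are 60 bases long but span 299, 232 and 11856 genomic bases, so they are split over an intron and read spliced RNA. The other probes cover 60 contiguous bases. No capitals are used in these lines because no motif was sought in them.
Parp1: agtacattgtctacgacattgctcaggtga
Parp2: cctctggaccatgaaagtaatgagtttaag
Parp9: gcctgttattttctaaaatgatagcacaaa
Parp10: cttggttggaccgcgccctagaggggttct
Parp11: cgaattaaaaggattcaaaggatccaaaac
Parp12: tgacttataatgatgttagtattgtatttt
Parp14: tgactagccaaccaatgttacagacacttt

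The comparison asked how PARP transcripts differed after 4 h of AEPS, and whether the DNA-repair members moved like the interferon-linked ones. By limma with Benjamini-Hochberg adjustment over 25930 features, at an adjusted p of 0.05, Parp2, Parp9 and Parp14 rose and no member fell. Thus 3 of 10 members rose, where 4.17% of all features tested rose and 2.94% fell. Parp14 rose 5.55-fold, and Parp2 and Parp9 each rose 2.12-fold. At an unadjusted p of 0.05, 5 members passed, Parp8 among them, as did 8458 of 25930 features. All 10 members could be tested, and 8 of them were well above background on every array. Parp8 and Parp11 entered the test only because their AEPS arrays were bright enough. In bulk RNA, a larger share of responding cells and more RNA per cell cannot be told apart.

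Scanner values below are log2 of the processed signal minus the 75th percentile of its array, written as scaled log2 signal, and table values are the authors' log2 values. A level is a property of its probe and is not compared between genes. The median change of all features tested was -0.19 on the log2 scale with this scaling and 0.45 with scaling to the spike-in controls, so each change is relative to its scaling.

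**Figure D1:**
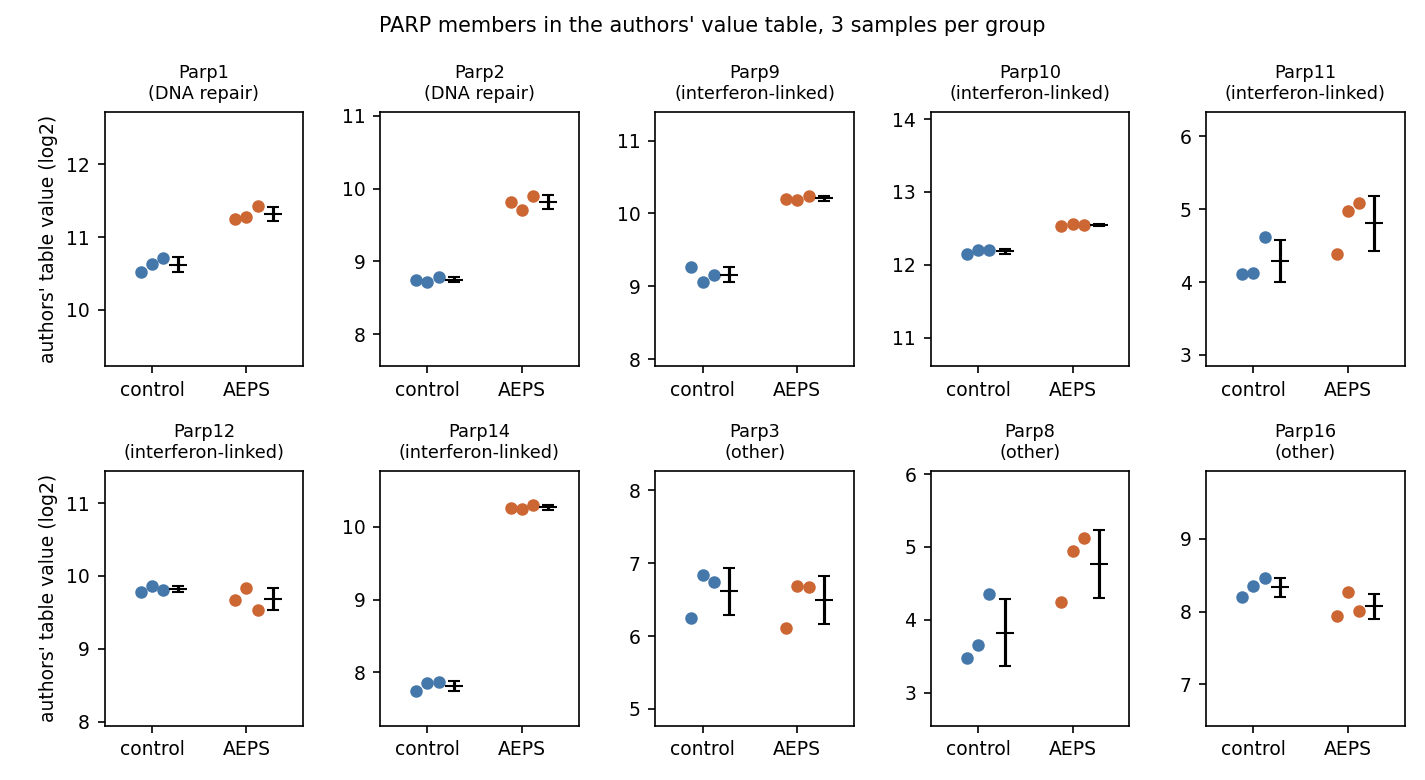
Values of the 10 PARP members in the authors' deposited table (log2, vertical axis) in the 3 control and 3 AEPS samples, each point 1 sample, with the mean and SD beside them. Every panel spans the same log2 range. The AEPS points lie above all control points for Parp1, Parp2, Parp9, Parp10 and Parp14, and the groups overlap for the other 5 members. How often the groups stay apart among all features was not counted. On these values 17.0% of all features rose and 16.4% fell by limma.

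Among the DNA-repair members, Parp1, the main producer of poly(ADP-ribose) after DNA damage, had a scaled log2 signal of 1.96 and 2.19 in the controls and 2.71 and 2.88 with AEPS. In the authors' deposited table it stood at 10.52, 10.63 and 10.72 in the controls and at 11.25, 11.28 and 11.43 with AEPS. Every AEPS value was above every control value in both sources, which share arrays. How common this is among all features was not counted. The scanner change of Parp1 was 0.72 ± 0.16 (log2, SE, 95% interval 0.27 to 1.17), which missed the threshold by limma at an adjusted p of 0.077. With the slide as a replicate block, limma gave an adjusted p of 0.0349, and on the table values 0.00364 for a change of 0.70.

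Parp2, the related DNA break sensor that shares part of the work of Parp1, had a scaled log2 signal of 0.19 and 0.16 in the controls and 1.28 and 1.23 with AEPS. Its table values were 8.75, 8.71 and 8.79 in the controls against 9.82, 9.71 and 9.90 with AEPS. The groups were far apart compared with their own spread, and the change was 1.08 on each slide. Parp2 rose by 1.08 ± 0.13 (log2, SE) with a limma adjusted p of 0.0337, and 4.17% of features had a larger positive change. The 95% intervals of Parp1 (0.27 to 1.17) and Parp2 (0.72 to 1.44) overlapped, and the difference between the 2 genes was not itself tested.

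Parp14, an interferon-linked enzyme that binds and writes mono(ADP-ribose) and is known to modulate macrophage activation, showed the largest rise of the members. Its scaled log2 signal was -0.74 and -0.71 in the controls and 1.70 and 1.79 with AEPS. The table gave 7.74, 7.85 and 7.87 in the controls and 10.26, 10.24 and 10.30 with AEPS. No sample came near the other group. The rise was 2.47 ± 0.13 (log2, SE, 95% interval 2.11 to 2.84) with a limma adjusted p of 0.0124, and 0.683% of features had a larger positive change. On the table values limma gave a change of 2.45 and an adjusted p of 7.14e-05.

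Parp9, which works in a complex with the ubiquitin ligase Dtx3l, had a scaled log2 signal of 0.67 and 0.53 in the controls and 1.64 and 1.73 with AEPS. Table values were 9.26, 9.06 and 9.15 in the controls and 10.20, 10.18 and 10.24 with AEPS. All AEPS samples were above all controls. The rise of 1.09 ± 0.14 (log2, SE) had a limma adjusted p of 0.0372 on the scanner arrays and 0.000691 on the table values. Its change was 0.97 on the first slide and 1.20 on the second.

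Parp10, an enzyme that attaches lone ADP-ribose units, differed less between the groups. Its scaled log2 signal was 3.64 and 3.84 in the controls and 4.05 and 4.21 with AEPS, and table values were 12.15, 12.20 and 12.21 against 12.53, 12.56 and 12.54. The groups did not overlap, although the gap was small, and how common this is among all features was not counted. The change of 0.39 ± 0.16 (log2, SE, 95% interval -0.05 to 0.82) did not pass on the scanner arrays, with a limma adjusted p of 0.183. The table's change of 0.36 passed by limma with an adjusted p of 0.00885.

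Parp12, a zinc-finger member that restricts viruses, gave no difference that passed the test. Its scaled log2 signal was 1.18 and 1.36 in the controls and 1.12 and 1.36 with AEPS. Its table values were 9.78, 9.86 and 9.81 against 9.67, 9.83 and 9.53. The groups overlapped in both sources. The change was -0.03 ± 0.17 (log2, SE, 95% interval -0.50 to 0.43) with a limma adjusted p of 0.901, and its sign turned with spike-in scaling (0.60) and with normexp background correction (0.02).

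Parp11, a nuclear envelope member that attaches lone ADP-ribose units, was near background. Its probe was well above background on 1 of 2 control arrays and on 2 of 2 AEPS arrays. The scaled log2 signal was -4.08 and -4.41 in the controls and -3.99 and -3.92 with AEPS, and table values were 4.11, 4.13 and 4.62 against 4.38, 4.97 and 5.08. The table groups overlapped. The change of 0.29 ± 0.17 (log2, SE) had a limma adjusted p of 0.319, and it was -0.24 with normexp correction. On the table values with a replicate block its limma adjusted p was 0.0488, in a fit where 23.5% of all features rose. The Parp11 probe entered the test only through its AEPS arrays.

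Among the other members, Parp3 had a scaled log2 signal of -2.07 and -1.73 in the controls and -2.28 and -2.06 with AEPS, and its groups overlapped. Table values of Parp3 were 6.25, 6.84 and 6.75 in the controls and 6.11, 6.69 and 6.67 with AEPS, again overlapping. Its change was -0.27 ± 0.19 (log2, SE), with a limma adjusted p of 0.388 and a value of 0.36 with spike-in scaling. Parp16 had a scaled log2 signal of -0.31 and -0.20 in the controls and -0.59 and -0.32 with AEPS on its brighter probe, a narrow gap. The table gave that probe 8.20, 8.35 and 8.46 against 7.94, 8.27 and 8.01, and these groups overlapped. Both Parp16 probes gave small differences, -0.20 and -0.18 on the log2 scale. The limma adjusted p of the brighter probe was 0.45, and its change was 0.43 with spike-in scaling.

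The Parp8 probe was well above background on both AEPS arrays and not on the control arrays. Its scaled log2 signal was -4.71 and -4.89 in the controls and -4.14 and -3.94 with AEPS. Its table values were 3.47, 3.65 and 4.35 in the controls and 4.24, 4.94 and 5.12 with AEPS, which overlap. With each control array set to its own signal or to the dimmest probe well above background, whichever was brighter, AEPS was 1.43-fold higher. This is a point value and not a minimum. The limma interval of the scanner change began at 0.31 (log2), and the probe entered the test only through its AEPS arrays. The limma adjusted p was 0.0702, and 0.0146 on the table values with a replicate block, where 23.5% of all features rose. Normexp correction turned the change to -0.23.

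**Figure D2:**
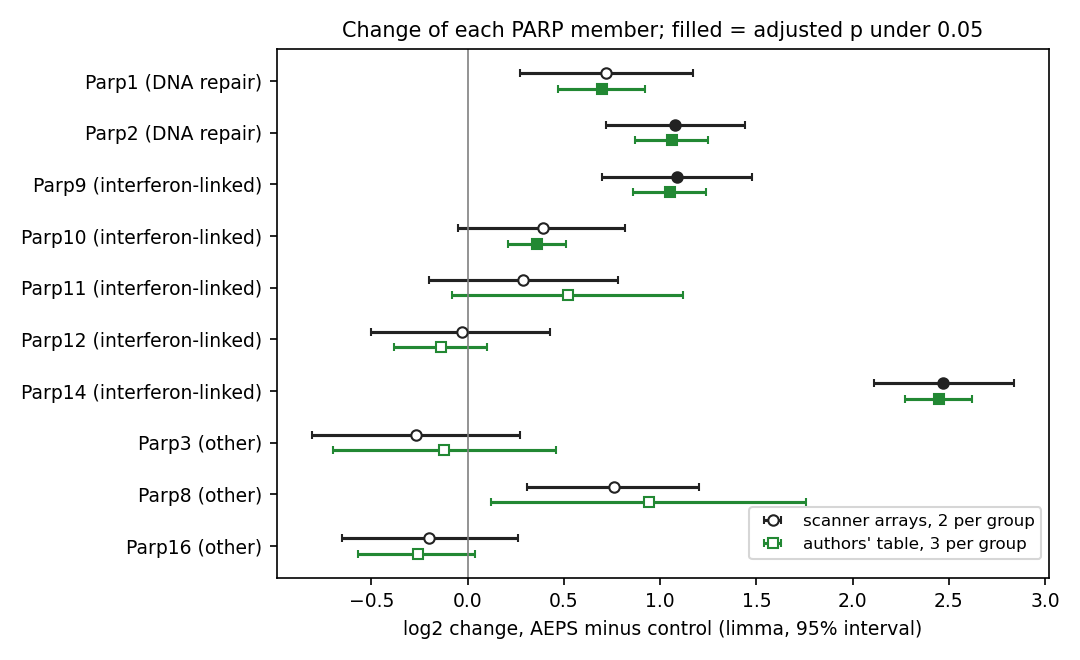
Change of each PARP member on the log2 scale, AEPS minus control (horizontal axis), with limma 95% intervals, from 2 scanner arrays per group (circles) and from the authors' table with 3 samples per group (squares). Filled symbols passed an adjusted p of 0.05. Parp14 stands apart at 2.47 and 2.45, and Parp12 lies next to 0.

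Set side by side, both DNA-repair members had higher AEPS values, with changes of 0.72 and 1.08, while the 5 interferon-linked members spread from -0.03 for Parp12 to 2.47 for Parp14. On the scanner arrays 1 of 2 DNA-repair members and 2 of 5 interferon-linked members rose, where 4.17% of all features rose. The median change was 0.90 for the DNA-repair members and 0.39 for the interferon-linked members, beside -0.19 for all features tested. The interferon-linked median, which does not weigh how far Parp14 rose, was thus 0.51 lower on the log2 scale. This difference describes 7 genes and was not tested. Leaving out Parp11, which was not above background on every array, changed that difference to -0.16. The interval of Parp14 (2.11 to 2.84) lay above the intervals of Parp1 (0.27 to 1.17) and Parp2 (0.72 to 1.44), whereas the interval of Parp12 (-0.50 to 0.43) lay below that of Parp2. Differences between genes were not tested beyond these intervals.

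Slides gave a like picture. On the first slide the medians were 0.92 for the DNA-repair and 0.41 for the interferon-linked members, and on the second 0.88 and 0.49. With the slide as a replicate block, 4 of 10 members rose, Parp1 joining, where 13.0% of all features rose. On the table values 5 of 10 members rose, Parp1 and Parp10 joining, where 17.0% of all features rose. With a replicate block on the table, 7 of 10 members passed upwards, where 23.5% of all features did. These included Parp8 and Parp11, which entered the test only through their AEPS arrays and whose changes were -0.23 and -0.24 with normexp correction. No member fell in any of these fits, where 16.8%, 16.4% and 26.3% of all features fell.

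Each fit without a scanner array leaves 1 array in a group, whose spread is then assumed to be that of the other group. Parp2 and Parp9 did not pass in any of these 4 fits, although their changes stayed at 1.06 to 1.1 and at 1.02 to 1.16 on the log2 scale, and Parp14 no longer passed when either control array was left out, with limma adjusted p-values of 0.0954 and 0.0784. The Parp14 change was 2.46 and 2.48 in those fits. On the table values, leaving out any 1 sample left between 5 and 7 members called.

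Parp9 and Parp14 are neighbours on mouse chromosome 16, with Dtx3l between them. The RefSeq bodies of Dtx3l and Parp9 overlap, and in human the 2 genes are known to be driven in opposite directions from a shared promoter. Dtx3l, chosen after its values were seen, had a mean scaled log2 signal of 1.22 ± 0.13 (SD, 2 arrays) in the controls and 2.10 ± 0.11 with AEPS. Its change of 0.88 ± 0.15 (log2, SE) had a limma adjusted p of 0.0548, and 0.0336 with the slide as a replicate block. Whether Dtx3l passed depended on the processing. Its limma adjusted p was 0.0391 with the mean of its probes, 0.0332 with quantile normalization and 0.000848 on the table values. With no filter on dim probes it was 0.211. Differences between Dtx3l and the flanking PARP genes were not tested.

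The genes around this trio were also chosen after their values were seen. Kpna1, an importin beside Parp9, had a change of 0.79 ± 0.17 (log2, SE) with a limma adjusted p of 0.0725, and 0.0346 with the slide as a replicate block. Wdr5b, the next gene, had a change of -0.09 with a limma adjusted p of 0.795. On the far side of Parp14, Hspbap1 was not tested and Slc49a4 had a change of 0.04 with a limma adjusted p of 0.941. Whether the trio differed from its neighbours was not tested.

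**Figure D3:**
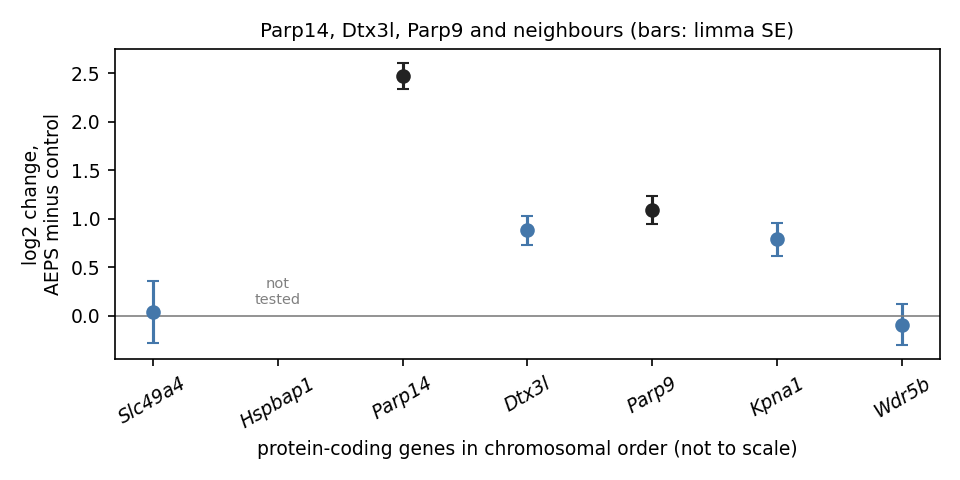
Log2 change, AEPS minus control, on the scanner arrays (vertical axis, bars limma SE) for Parp14, Dtx3l, Parp9 and their neighbours in chromosomal order (horizontal axis, not to scale). Black points are PARP members. The values run 2.47, 0.88 and 1.09 for the trio. Kpna1, beside Parp9, stands at 0.79, and Slc49a4 (0.04) and Wdr5b (-0.09) at the ends lie next to 0.

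RefSeq promoters of GRCm38.p6, from 250 bases before to 50 after the start, were matched for 7 of 10 members (8 promoters), and that of Dtx3l was added. Parp9, Parp10 and Parp14 were not matched, so Parp2 is the one member that rose and has a promoter here. Letters sought on both strands were GAAA followed after 2 bases by GAAA, like the interferon-stimulated response element, present in 3.44% of 32851 promoters, and TTCNNNGAA, like the gamma-activated site, present in 8.30%. A match is a description of letters and not of binding.

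The promoters printed are those of Parp2, which rose, Parp11 and Parp12, which are interferon-linked and did not pass, and Dtx3l, the partner of Parp9. They lie at chr14:50807666-50807965 on the plus strand, chr6:127446590-127446889 on the plus strand, chr6:39118300-39118599 on the minus strand and chr16:35938978-35939277 on the minus strand. Capitals mark letters that match a motif. In Parp11, TTTCGATTTC begins 44 bases before the start and the overlapping TTCTTGGAA begins 37 bases before it. The second Parp11 promoter and those of Parp1, Parp2, Parp3, Parp8, Parp12 and Dtx3l held neither motif, and that of Parp16 held TTCAGAGAA 4 bases before the start.
Parp2 promoter: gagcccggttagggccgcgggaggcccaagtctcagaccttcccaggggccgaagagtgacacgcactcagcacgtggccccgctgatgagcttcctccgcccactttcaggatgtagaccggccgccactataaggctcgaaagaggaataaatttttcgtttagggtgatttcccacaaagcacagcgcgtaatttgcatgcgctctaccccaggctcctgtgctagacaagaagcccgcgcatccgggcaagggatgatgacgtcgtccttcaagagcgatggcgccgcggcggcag
Parp11 promoter: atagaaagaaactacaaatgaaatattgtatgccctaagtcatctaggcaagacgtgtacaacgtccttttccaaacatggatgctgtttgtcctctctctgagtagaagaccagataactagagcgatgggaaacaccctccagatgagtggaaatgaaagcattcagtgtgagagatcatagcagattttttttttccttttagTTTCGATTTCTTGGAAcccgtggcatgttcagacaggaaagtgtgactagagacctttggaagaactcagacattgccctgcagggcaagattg
Parp12 promoter: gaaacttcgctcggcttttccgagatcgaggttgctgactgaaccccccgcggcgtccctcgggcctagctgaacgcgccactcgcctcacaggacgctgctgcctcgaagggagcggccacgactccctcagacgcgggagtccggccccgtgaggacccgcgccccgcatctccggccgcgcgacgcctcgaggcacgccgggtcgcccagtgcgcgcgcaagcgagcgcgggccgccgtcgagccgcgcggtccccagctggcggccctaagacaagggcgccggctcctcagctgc
Dtx3l promoter: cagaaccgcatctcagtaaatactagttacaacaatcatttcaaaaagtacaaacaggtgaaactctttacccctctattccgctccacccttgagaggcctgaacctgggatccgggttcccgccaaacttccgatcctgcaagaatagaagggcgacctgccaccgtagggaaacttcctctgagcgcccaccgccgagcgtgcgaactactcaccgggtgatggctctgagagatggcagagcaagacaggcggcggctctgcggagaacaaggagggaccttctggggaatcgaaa

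Genes that place the PARP members in their pathway were read from lists, described by counts. Of 6 other PARP superfamily genes, 1 rose and none fell, where 4.17% of all features rose. Their median change was 0.30. Tnks, a tankyrase that builds poly(ADP-ribose) on telomere and Wnt pathway proteins, rose by 1.14 ± 0.14 (log2, SE) with a limma adjusted p of 0.0353, although the change was 0.30 with normexp correction and the call was lost in each of the 4 fits without a scanner array. Zc3hav1, the zinc-finger antiviral protein, had a change of 0.40 with a limma adjusted p of 0.129, and 0.0493 with the slide as a replicate block. Tiparp, an aryl hydrocarbon receptor target chosen after its values were seen, was 2.14-fold higher with a limma adjusted p of 0.0507, and 0.0336 with the block. With that block 3 of the 6 genes rose, where 13.0% of all features rose.

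Of the genes that remove or read ADP-ribose, 14 of 15 were tested and none passed by limma, with a median change of 0.04. With the replicate block 1 rose, Dtx3l, and 2 fell, where 13.0% of all features rose and 16.8% fell. Hpf1, the cofactor that directs Parp1 and Parp2 to serine residues, had a change of 0.23 with a limma adjusted p of 0.43. The 12 single-strand break and base excision repair genes, which act downstream of Parp1 and Parp2, had a median change of -0.25, beside -0.19 for all features tested, and none passed. With the replicate block 1 rose and 4 fell, beside the same shares of all features. The gene that rose was Polb, the gap-filling polymerase, chosen after its values were seen, with a change of 0.98 and a limma adjusted p of 0.0336 with the block. Ung, which removes uracil from DNA, had a change of -0.07 with a limma adjusted p of 0.784, and 0.56 with spike-in scaling.

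Of 17 genes that make or consume NAD+, the PARP substrate, 15 were tested and none passed by limma, with a median change of -0.05. With the replicate block 1 rose and 3 fell, where 13.0% of all features rose and 16.8% fell. The one that rose was Nampt, the rate-limiting enzyme of NAD+ salvage, chosen after its values were seen, with a change of 0.91, a limma adjusted p of 0.0516, and 0.0336 with the block. Sirt7, an NAD+-dependent deacylase, had a change of -0.52 with a limma adjusted p of 0.0956, and 0.11 with spike-in scaling.

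Interferon signalling lies upstream of the interferon-linked members. Of 10 genes 9 were tested, 1 rose and none fell, where 4.17% of all features rose. Their median change was 0.37. Ifnb1, which encodes interferon beta, had a mean scaled log2 signal of -4.32 in the controls and 0.64 with AEPS. The control signal was dim, though well above background on both arrays. Ifnb1 rose by 4.96 ± 0.16 (log2, SE) with a limma adjusted p of 0.00813. That change was 2.90 with normexp correction, and without the first control array the adjusted p was 0.0622. Ifnar2, a receptor chain for it, had a change of 0.13 with a limma adjusted p of 0.542. With the replicate block 4 of the 9 rose, where 13.0% of all features rose. Among the 4 was Irf9, part of the factor that binds the response element, chosen after its values were seen. It had a limma adjusted p of 0.0341 with the block and a change of 0.80.

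**Figure D4:**
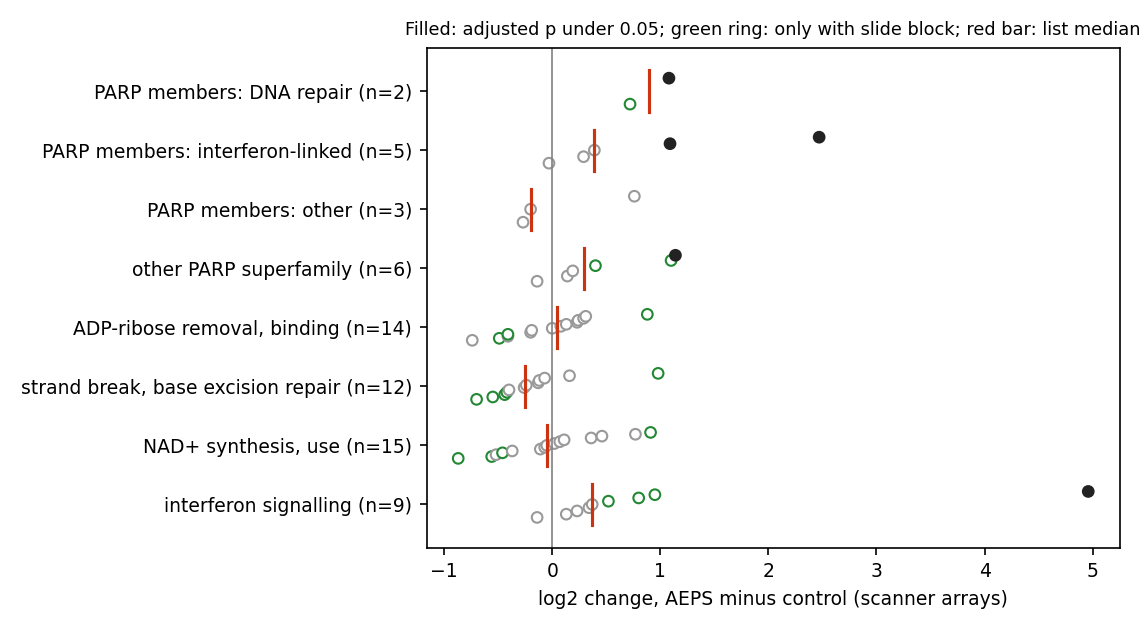
Log2 change, AEPS minus control, on the scanner arrays (horizontal axis) for each tested gene of the PARP classes and pathway lists (one line per list, n tested genes). Filled points passed an adjusted p of 0.05, green rings passed it only with the slide as a replicate block, grey rings passed neither, and the red bar is the list median. Medians run from -0.25 for repair genes to 0.90 for the DNA-repair PARPs, and Ifnb1 is the point at 4.96.

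Macrophage marker values stood beside these changes. Fcgr1, an Fc receptor, fell by 1.49 on the log2 scale with a limma adjusted p of 0.0344, a call that was lost with quantile normalization (0.0679), with spike-in scaling (0.0944) and in 3 of the 4 fits without a scanner array. Csf1r, the receptor of the growth factor M-CSF, had a change of -0.60 with a limma adjusted p of 0.112, and 0.0371 with the slide as a replicate block. With spike-in scaling its change was 0.03. Of the 8 markers 1 fell and none rose, 2 fell and none rose with the block, and the authors' table gave 2 that fell and 3 that rose, namely Adgre1, Spi1 and Cd14, named after their values were seen. Their median change was 0.06, and their summed scaled signal was 1190 and 1410 in the controls and 1050 and 1170 with AEPS. Of the tested markers of other cell types none passed by limma, and Cd3e had a change of -0.55 with an adjusted p of 0.287. Their summed scaled signal, mostly that of the Cd3e probe, was 10.9 and 8.46 in the controls and 8.57 and 5.32 with AEPS. The part of these markers in the PARP changes was not tested.

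Genes most like Parp1 and Parp14 were found by Pearson's r over the 6 columns of the table among 14196 genes, which all share these samples and the treatment. For Parp1 they included Naf1 (r = 0.9997) and Slfn9 (r = 0.9988). For Parp14 they were Il1b, Ptgs2 and Hk2 (r = 0.9999 each). Their changes on the scanner arrays were 8.34, 4.26 and 0.78 on the log2 scale, so a like pattern did not mean a like size. As many as 728 genes passed r = 0.99 with Parp14 and 301 with Parp1.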

How the data were processed

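The scanner output came from Agilent Feature Extraction 10.7.1.1, per the file headers. The deposited scanner files give intensity, a processed signal after background subtraction, with no normalization between arrays. The authors' deposited value table holds log2 values whose sorted columns differ by at most 0.01 with a median of 4.71. Their normalization is not stated in the labels or headers. No column of per-sample values was left out.

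Control spots and outlier-flagged spots were left out, spots of 1 probe were averaged, and log2 intensity was set relative to the 75th percentile of each array (400.7 and 286.7 in the controls, 574.7 and 487.6 with AEPS). Precision is limited by the number of arrays. No spot was saturated. Tested probes were well above background on all arrays of 1 group or both, and a gene was represented by its brightest tested probe. Of 55681 probes, 26576 were named through RefSeq, 4824 by the scanner annotation alone, and 24281 were unnamed. The comparison used lmFit and eBayes of limma 3.58.1, run in R 4.3.3, and p-values were adjusted by Benjamini-Hochberg over 25930 features. The calculations were tested on simulated data. Promoters and tables used Python 3.11.15.

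Replicate numbers were checked for pairing. Same-numbered samples deviated together from their group means, with correlations of 0.58, 0.39 and 0.41 in the table, against -0.50 to 0.24 for differently numbered ones, and of 0.62 on the scanner slides. Deviations from a group mean cancel, so positive values for same-numbered samples lower the others, and both scanner slides must give the same value. In the table, same-numbered samples were more alike than differently numbered ones, but these correlations cannot establish that the samples were paired. The replicate block on the table takes same-numbered samples as pairs. On the scanner arrays the block is the slide, and each slide holds 1 array of each group.

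All members are named whatever their value. Of each other list, up to 6 genes past the threshold and the brightest that did not pass are named, and for likeness the 3 genes closest to Parp1 and to Parp14; some genes of these lists are not reported here. Dtx3l, Tiparp, Polb, Nampt, Irf9, Adgre1, Spi1, Cd14 and the chromosome 16 neighbours were named after their values were seen. The members and lists were chosen with earlier results of these data known. Alternatives were quantile, spike-in and normexp processing (offset 50), other filters and probe rules, the replicate block, the authors' table, and leaving out each sample.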

Additional observations from a re-analysis of the deposited data

How the results depend on the processing

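The number of members called was 3, and it was 0 with no filter on dim probes (5 at an unadjusted p of 0.05), 4 with the slide as a replicate block, 5 on the authors' table and 7 there with the block. Leaving out 1 sample gave 0 to 1 on the scanner arrays and 5 to 7 on the table. Of all features, 1844 were called, against 3146 with quantile normalization, 4592 with normexp correction (1900 higher and 2692 lower), 0 with no filter (7352 at an unadjusted p of 0.05 by limma), 2804 with each probe its own feature, 7722 with the replicate block, 8667 on the table and 12914 there with the block. Leaving out 1 sample gave 7 to 791 on the scanner arrays and 5606 to 7453 on the table. Spike-in scaling called 1991 features, 1934 higher and 57 lower, against 1082 and 762. The table's replicates 1 and 2 alone, chosen after seeing the data, called 4 members and 2678 features.

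The interferon-linked median minus the DNA-repair median, -0.51, was -0.32 with quantile normalization and -0.16 with probes above background on every array. It was -0.36 on the table with or without the replicate block, and -0.31 on its replicates 1 and 2. Leaving out 1 sample gave -0.56 to -0.16.

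Spike-in scaling turned the sign of Parp12 (0.60), Parp3 (0.36), Parp16 (0.43), Ung (0.56), Sirt7 (0.11), Csf1r (0.03) and Cd3e (0.09). Normexp correction turned Parp11 (-0.24), Parp8 (-0.23), Parp12 (0.02) and Ung (0.02). Ung was 0.02 on the table with and without the block. Leaving out 1 sample turned Parp12 (range -0.22 to 0.08), Parp3 (-0.44 to 0.07) and Ung (-0.18 to 0.14). The cause was not tested. Over 21 alternatives, Parp1, Parp2, Parp9, Parp10 and Parp14 kept their direction. The replicate block changed the call of Parp1 and of no other member on the scanner arrays. Signal over background limits Parp8 and Parp11.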
